A study of Mus musculus with 36 samples.

Results

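Thapsigargin is a plant compound that blocks the calcium pump SERCA and so empties the calcium store of the endoplasmic reticulum (ER). Mouse embryonic fibroblasts (MEFs) deleted for the kinase GCN2 were given 200 nM thapsigargin for 6 h, and their RNA was set against that of the same line given the solvent DMSO. The members are the 6 RNA-seq libraries of these groups, 3 with thapsigargin and 3 with DMSO, of 36 libraries in the series, found by their column names in the deposited table. The table gives TPM, a length-normalised transcript level with the same total in every library, and differences are on the scale log2(TPM + 1), which understates the change of genes near 0. A log2 change is given with its standard error (SE) after ±, and a level with its SD where it has one.

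The labels give the genotype of both groups as GCN2 delete and their cell type as MEF, and they do not say which part of the gene was removed. The other groups used below are the same line left untreated or kept for 6 h without lysine and arginine (AAS, amino acid starvation, in SILAC medium), and WT and PERK delete MEFs given thapsigargin or DMSO in the same way. The series asked for markers that answer to 1 of these kinases and not to the other. The labels name 1 line per genotype and call the 3 libraries of a group technical replicates, so that p-values speak only of how much such libraries vary, and genotype and line cannot be told apart.

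As background, ER stress is sensed by 3 proteins of the ER membrane. IRE1 (gene Ern1) splices the mRNA of the transcription factor XBP1, ATF6 is cut to release a transcription factor, and PERK (gene Eif2ak3) phosphorylates the translation factor eIF2alpha. GCN2 (gene Eif2ak4) phosphorylates the same site of eIF2alpha when amino acids are short. Phosphorylated eIF2alpha lowers protein synthesis but favours translation of ATF4, a factor that turns on genes for amino acid supply, redox balance and, with CHOP (gene Ddit3), cell death. This shared arm is the integrated stress response (ISR), and the whole reaction to misfolded ER protein is the unfolded protein response (UPR).

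Promoters were searched for 3 elements through which these arms are known to act, and windows with the first 2 were read from RefSeq promoters of GRCm38.p6. The ER stress element, bound by ATF6 and XBP1, was searched as CCAAT, any 9 bases and CCACG on both strands of the 250 bases before the start. It was found in 7 of 24 chaperone genes matched to the table (29.2%), in 2 of 25 genes of ER-associated degradation (8.0%), and in 35 of all 27025 genes of the promoter table (0.13%). The windows of 4 such genes follow, 5′ to 3′ on the gene's strand, with the element in capitals (for Creld2 its reverse complement) and 20 bases on each side. They lie at chr2:34772005-34772063, plus strand (Hspa5), chr14:118937807-118937865, plus strand (Dnajc3), chr19:6046512-6046570, plus strand (Syvn1) and chr15:88819500-88819558, plus strand (Creld2). The Creld2 window is also upstream of Alg12, a mannosyltransferase gene on the other strand.
Hspa5: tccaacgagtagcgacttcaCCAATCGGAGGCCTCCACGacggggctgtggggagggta
Dnajc3: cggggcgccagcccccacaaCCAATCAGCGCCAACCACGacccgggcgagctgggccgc
Syvn1: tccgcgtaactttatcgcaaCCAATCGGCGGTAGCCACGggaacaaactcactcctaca
Creld2: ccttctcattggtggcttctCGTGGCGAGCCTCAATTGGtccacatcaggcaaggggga

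The C/EBP-ATF element, bound by pairs of ATF4 and a C/EBP protein, was searched as TGATG, any base and AAT on both strands of the same windows and was present in 246 of the 27025 genes (0.91%). It was found in 2 of 23 ATF4 and CHOP stress genes and in 2 of 12 genes of cytosolic tRNA synthetases. Of these, 3 are shown, all with the reverse complement of the element in capitals, at chr7:126625553-126625601, minus strand (Nupr1), chr7:45615602-45615650, minus strand (Fgf21) and chr8:111033709-111033757, plus strand (Aars).
Nupr1: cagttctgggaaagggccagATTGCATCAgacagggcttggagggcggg
Fgf21: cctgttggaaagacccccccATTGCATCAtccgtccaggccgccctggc
Aars: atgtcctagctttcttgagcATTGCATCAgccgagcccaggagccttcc

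Of the tested genes with an ER stress element in the window, 10 of 17 rose with thapsigargin (58.8%) and 1 fell. Of those with a C/EBP-ATF element, 19 of 45 rose (42.2%) and 3 fell. The unfolded protein response element, bound by XBP1 and ATF6 and searched as TGACGTG on both strands, was present in 499 of the 27025 genes (1.85%), in 3 of the 24 chaperone genes (12.5%), and in 274 tested genes, of which 123 rose (44.9%) and 18 fell. Among all 10074 tested genes of the promoter table, 3107 rose (30.8%) and 1316 fell. A match describes letters and not a bound site, and elements in exons, introns or farther upstream are outside these windows.

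The 6 libraries had 13126 to 13698 genes at 1 TPM or more, and libraries of a group correlated at r of 0.969 to 0.985. Fibroblast markers were at a summed 5843 to 5989 TPM with DMSO and 5045 to 5310 TPM with thapsigargin, with 11 of 12 markers tested. Of the markers of other cell types, 7 of 8 epithelial, 5 of 7 endothelial, 7 of 9 leukocyte, 5 of 7 muscle, 6 of 8 neural, 4 of 6 adipocyte and 5 of 5 pluripotent genes were under 1 TPM in all 6 libraries. The summed endothelial level was 2.31 to 3.99 TPM with DMSO and 5.29 to 7.12 TPM with thapsigargin, and the neural one 23.6 to 29.1 and 38.04 to 44.0 TPM. The adipocyte sum was 5.95 to 7.42 and 7.59 to 8.72 TPM, and the sums of the other lists overlapped between the groups. The part of such cells in the results was not tested. Symbols of microRNAs took 2.81% of TPM in DMSO replicate 1, 1.97% in thapsigargin replicate 2 and 0.726% to 1.00% in the other 4 libraries. The processed pseudogene Gm19220 (chr12:40893485-40894287) took 0.713%, 0.0573% and 0.0672% of TPM with DMSO and 3.83%, 4.08% and 2.83% with thapsigargin, and it did not pass the test (4.66 ± 2.23, adjusted p = 0.108). Since TPM have a fixed total, such shares lower all other values, and their part in the results was not tested beyond the rescaling given below.

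Eif2ak4, the gene of the deleted kinase (chr2:118388618-118475234), still gave reads. Its level was 7.69, 5.37 and 4.55 TPM with DMSO and 7.89, 5.36 and 6.87 TPM with thapsigargin, with overlapping groups (0.18 ± 0.13, adjusted p = 0.319). In WT it was 21.8 ± 1.48 TPM with DMSO and 19.6 ± 1.36 TPM with thapsigargin, and in the PERK-deletion line 23.2 ± 1.78 and 22.8 ± 0.871 TPM (mean ± SD, n = 3). The libraries labelled GCN2 delete thus had the lowest levels of this gene, and reads outside a deleted part would still be counted. PERK itself, Eif2ak3 (chr6:70844515-70905245), stood at 10.9, 9.49 and 9.43 TPM with DMSO and 20.7, 17.1 and 19.9 TPM with thapsigargin. All 3 thapsigargin libraries were higher (0.88 ± 0.097, adjusted p = 3.07e-08). Eif2ak3 still gave reads in the PERK-deletion line too, and there it rose by 0.80 with thapsigargin, against 0.62 in WT. The remaining eIF2alpha kinases did not pass the test: Eif2ak1, the heme-regulated HRI, was at a log2 difference of 0.095 ± 0.056 (adjusted p = 0.2) and Eif2ak2, the RNA-activated PKR, at 0.019 ± 0.14 (adjusted p = 0.949).

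Across the transcriptome, thapsigargin raised 4085 of 16083 genes tested (25.4%) and lowered 1805 (11.2%), as called by limma at an adjusted p under 0.05. At least 2-fold, 455 genes rose (2.83%) and 121 fell (0.752%), 345 and 68 of them protein coding. The 3 and 3 libraries did not overlap for 7132 genes (44.3%), in either direction. The balance of rises and falls depends on the scaling: the median gene changed by 0.078 on the log2 scale, and after rescaling by median of ratios (median -0.022) 2982 genes rose and 3215 fell. With Gm19220 left out and TPM rescaled, 4728 rose and 1519 fell. In the same line the solvent alone, DMSO against untreated, gave 9 genes higher and 13 lower.

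**Figure D1:**
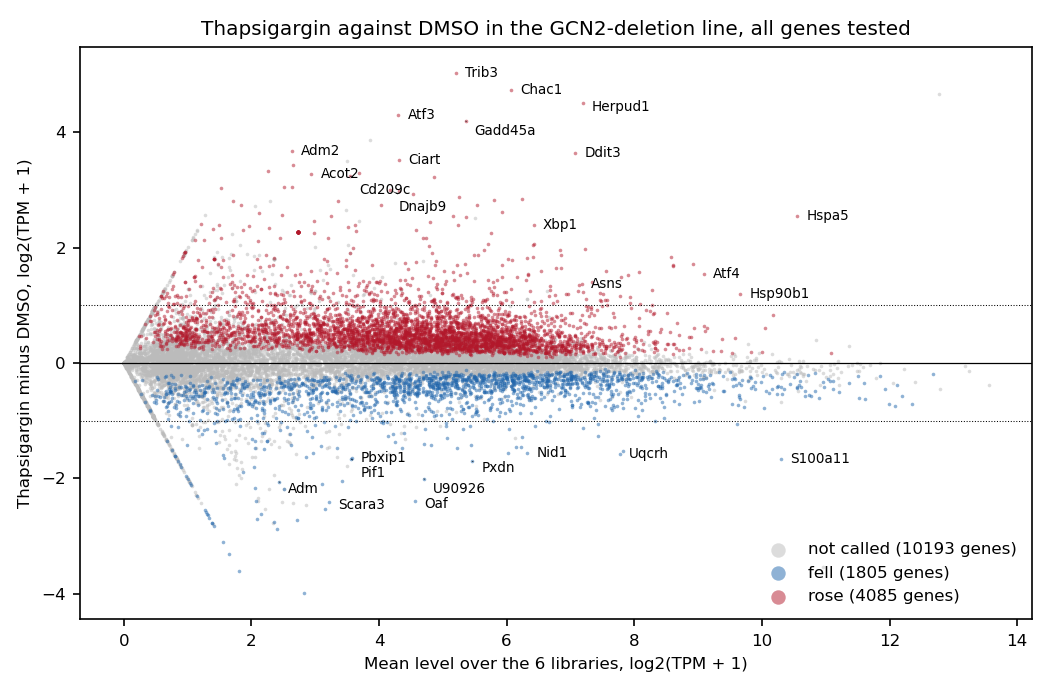
Each point is 1 of the 16083 genes tested, with its mean level over the 6 libraries on the x axis and its thapsigargin minus DMSO difference on the y axis, both on log2(TPM + 1); dotted lines mark a 2-fold change. Named stress genes such as Trib3, Chac1 and Herpud1 stand at the top, above a log2 change of 4, and Scara3, Oaf and Adm below -2.

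Genes were ranked here if called, with a conventional symbol, a mean of at least 5 TPM in either group and no overlap of libraries. Those that rose most were led by targets of ATF4 and CHOP. Trib3, a pseudokinase that restrains CHOP and AKT signalling, stood at 6.38, 5.38 and 4.78 TPM with DMSO and 208, 206 and 216 TPM with thapsigargin. Chac1, which degrades glutathione, was at 12.2, 12.5 and 11.2 TPM with DMSO and 344, 341 and 347 TPM with thapsigargin. Their means were 38.1 and 28.7 times those with DMSO, and the groups did not overlap (5.02 ± 0.12, adjusted p = 2.7e-22 and 4.73 ± 0.11, adjusted p = 2.7e-22). Herpud1, an ER membrane protein that organises degradation of misfolded proteins, had 30.5, 29.8 and 29 TPM with DMSO and 702, 689 and 697 TPM with thapsigargin, a change of 4.50 ± 0.094 (adjusted p = 1.29e-23). Atf3, a stress transcription factor, went from 3.49 to 86.7 TPM (4.29 ± 0.14, adjusted p = 4.83e-19). Gadd45a, a DNA-damage and stress gene, went from 8.66 to 174 TPM (4.19 ± 0.10, adjusted p = 2.7e-22). The groups were apart for all of these genes. Next in size were Adm2, a peptide hormone of the calcitonin family, from 0.743 to 21.1 TPM (3.67 ± 0.10, adjusted p = 6.18e-21), Ddit3 (below), and Ciart, a repressor of the circadian clock, from 4.9 to 66.3 TPM (3.51 ± 0.17, adjusted p = 1.64e-15). Acot2, a mitochondrial acyl-CoA thioesterase, went from 1.48 to 22.9 TPM (3.27 ± 0.10, adjusted p = 6.07e-20), and Cd209c, a lectin of the DC-SIGN family with close paralogs, from 2.86 to 35.4 TPM (3.23 ± 0.14, adjusted p = 1.08e-16).

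By the same rule, the genes that fell most were less alike. The lowest change was -3.99 over all genes tested and -3.53 over protein-coding ones, both of genes outside this rule. Scara3, a scavenger receptor-like protein whose mRNA is a known IRE1 substrate, stood at 21, 20.05 and 19.96 TPM with DMSO and 2.91, 2.87 and 3.34 TPM with thapsigargin, so that no thapsigargin library came near the lowest DMSO one (-2.40 ± 0.085, adjusted p = 1.27e-18). Oaf, a secreted protein, was at 53, 54 and 53.1 TPM with DMSO and 7.4, 9.08 and 12.2 TPM with thapsigargin, a change of -2.39 ± 0.15 (adjusted p = 3.87e-13). Adm, adrenomedullin, fell from 10.04 to 1.66 TPM (-2.06 ± 0.16, adjusted p = 4.24e-11), while its relative Adm2 was among the genes that rose most. S100a11, a calcium-binding protein, and Uqcrh, a subunit of respiratory complex III, are abundant genes that fell from 2234 to 708 TPM (-1.66 ± 0.070, adjusted p = 8.81e-17) and from 380.1 to 126 TPM (-1.58 ± 0.11, adjusted p = 7.89e-12). The basement membrane proteins Pxdn and Nid1 changed by -1.71 ± 0.099 (adjusted p = 1.11e-13) and -1.57 ± 0.12 (adjusted p = 3.28e-11). The remaining genes of the 10 were U90926 (-2.01 ± 0.11, adjusted p = 5.33e-14), the DNA helicase Pif1 (-1.66 ± 0.17, adjusted p = 4.54e-09) and Pbxip1, which binds PBX factors (-1.65 ± 0.088, adjusted p = 1.72e-14).

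Of the UPR sensors and membrane-bound factors, 6 of 10 members rose (60%) and 0 fell, with a median log2 change of 0.47. Over all genes tested 25.4% rose and 11.2% fell, and the counts of every list below are to be read against these shares. Atf6b, Creb3 and the proteases Mbtps1 and Mbtps2 did not pass. Xbp1 stood at 38.9, 35.7 and 35.1 TPM with DMSO and 204, 181 and 202 TPM with thapsigargin. Its 3 thapsigargin libraries were all far above the DMSO ones (2.39 ± 0.079, adjusted p = 3.23e-19), and the gene totals do not separate spliced from unspliced mRNA. Atf6 rose from 20.8 to 39.5 TPM (0.90 ± 0.11, adjusted p = 2.04e-07) and Creb3l2, a related membrane-bound factor, from 17.1 to 36.7 TPM (1.06 ± 0.090, adjusted p = 2.47e-10). Ern1, the IRE1 gene, rose less, from 11.2 to 17.2 TPM (0.58 ± 0.13, adjusted p = 0.00103).

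ER chaperones and folding enzymes rose broadly: 23 of 30 members rose and 1 fell, with a median log2 change of 0.66 against 0.078 over all genes tested, and 11 members rose at least 2-fold. After median-of-ratios rescaling 18 rose and 1 fell. The member that fell was Txndc5, a thioredoxin-domain protein, whose call was lost without thapsigargin replicate 2 or DMSO replicates 2 or 3. Hspa5, the ER HSP70 chaperone BiP, whose element is shown above, stood at 599, 643 and 624 TPM with DMSO and 3749, 3469 and 3677 TPM with thapsigargin. Its mean was 5.84 times that with DMSO, and the groups were far apart (2.54 ± 0.063, adjusted p = 3.91e-22). Dnajb9, a co-chaperone of BiP, had 5.11, 5.37 and 5.59 TPM with DMSO and 49.9, 47.6 and 52.2 TPM with thapsigargin. Sdf2l1, of the same list, had 21.7, 20.9 and 17.2 TPM with DMSO and 148, 143 and 151 TPM with thapsigargin. Both groups were again apart, with changes of 3.00 ± 0.10 (adjusted p = 4.9e-19) and 2.83 ± 0.077 (adjusted p = 4.81e-21). Creld2 and Manf, secreted and luminal ER stress proteins, rose from 59.1 to 220.2 TPM (1.88 ± 0.057, adjusted p = 5.01e-20) and from 216 to 697 TPM (1.68 ± 0.067, adjusted p = 1.91e-17). Hyou1, a nucleotide exchange factor of BiP, changed by 1.2 ± 0.073 (adjusted p = 2.52e-13), and Dnajc3, which inhibits PERK, by 1.31 ± 0.089 (adjusted p = 2.84e-12). Among disulfide enzymes Pdia4 changed by 1.15 ± 0.062 (adjusted p = 1.71e-14), Pdia6 by 0.85 ± 0.050 (adjusted p = 1.49e-13) and the oxidase gene Ero1lb by 1.83 ± 0.11 (adjusted p = 2.39e-13). The lectin chaperones Calr and Canx changed by 0.84 ± 0.088 (adjusted p = 1.24e-08) and 0.49 ± 0.090 (adjusted p = 8.62e-05), and Hsp90b1, the ER HSP90, by 1.19 ± 0.091 (adjusted p = 2.59e-11).

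ER-associated degradation exports misfolded proteins to the proteasome. Of its genes 22 of 32 members rose (68.8%, against 25.4% of all genes) and 1 fell (median 0.31). After median-of-ratios rescaling 14 rose and 3 fell. Syvn1, the ubiquitin ligase HRD1, stood at 41.7, 31.2 and 30.2 TPM with DMSO and 120.0, 117 and 124 TPM with thapsigargin and its partner Sel1l at 28.9, 32 and 30.7 TPM with DMSO and 88.9, 82.3 and 83.6 TPM with thapsigargin. Neither gene's groups overlapped (1.79 ± 0.13, adjusted p = 5.43e-12 and 1.45 ± 0.12, adjusted p = 2.46e-10). The mannosidase-like Edem1 rose from 24 to 53.5 TPM (1.12 ± 0.098, adjusted p = 4.26e-10), and the membrane proteins Selenos and Derl1 changed by 0.95 ± 0.075 (adjusted p = 5.13e-11) and 0.83 ± 0.053 (adjusted p = 9.24e-13). Rnf5, a ubiquitin ligase of the ER membrane, was the member that fell, from 32.3 to 23.8 TPM (-0.43 ± 0.082, adjusted p = 0.000131). Vcp, the ATPase that pulls proteins from the membrane, was at 522 TPM with DMSO and 513 TPM with thapsigargin and did not pass (-0.027 ± 0.050, adjusted p = 0.732).

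In the machinery of ER import, glycosylation and exit, 35 of 60 members rose (58.3%, against 25.4% of all genes) and 4 fell (6.67%, against 11.2%). The median was 0.25, and after median-of-ratios rescaling 22 rose and 8 fell. Those that fell were Sec61b, Spcs1, Tram2 and Dad1, and 7 members fell without DMSO replicate 1. The largest rises were of glycosylation enzymes: Alg12 went from 9.65 to 26.7 TPM (1.37 ± 0.10, adjusted p = 1.13e-11) and Alg2 from 15.2 to 30.2 TPM (0.94 ± 0.081, adjusted p = 2.91e-10). Gmppb, which makes GDP-mannose, changed by 0.67 ± 0.092 (adjusted p = 1.14e-06), and Sec61a1, the channel of the translocon, by 0.34 ± 0.058 (adjusted p = 2.43e-05).

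mRNAs known to be cut by IRE1 went the other way, and 5 of 6 members fell (83.3%, against 11.2% of all genes) with none higher (median -0.74). Beside Scara3, Hgsnat, a lysosomal acetyltransferase, stood at 22.7, 18.1 and 18.5 TPM with DMSO and 8.38, 10.6 and 10.3 TPM with thapsigargin, and Bloc1s1, a subunit of the BLOC-1 complex and a much used marker of this cleavage, at 67.8, 98.4 and 88.5 TPM with DMSO and 46.6, 41.9 and 47.8 TPM with thapsigargin. Every thapsigargin library was below every DMSO library for both (-0.94 ± 0.086, adjusted p = 9.07e-10 and -0.87 ± 0.099, adjusted p = 5.17e-08). The matrix genes Col6a1 and Sparc of this list changed by -0.61 ± 0.097 (adjusted p = 1.28e-05) and -0.55 ± 0.064 (adjusted p = 8.15e-08), and Pdgfrb, a growth factor receptor, did not pass (-0.19 ± 0.094, adjusted p = 0.123).

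The ATF4 and CHOP arm rose nearly whole: 27 of 28 members rose and 0 fell, with a median log2 change of 2.26, the highest of the lists, and after median-of-ratios rescaling 26 rose and 1 fell. The member that did not pass was Tnfrsf10b, described with the death genes. The lists were chosen with earlier results of these data known. Some members, such as Asns and Ppp1r15a, are counted in other lists as well. Atf4 mRNA stood at 320.4, 322 and 315 TPM with DMSO and 946, 879 and 972 TPM with thapsigargin. All thapsigargin libraries were higher, by 1.54 ± 0.048 (adjusted p = 7.63e-20). Ddit3, the CHOP gene, had 40.2, 36.2 and 34.7 TPM with DMSO and 484, 451 and 489 TPM with thapsigargin, a mean 12.8 times that with DMSO (3.65 ± 0.063, adjusted p = 1.85e-25). Ppp1r15a, the GADD34 subunit that directs dephosphorylation of eIF2alpha, had 31.6, 24 and 26 TPM with DMSO and 199, 201 and 204 TPM with thapsigargin and Sesn2, a leucine sensor that restrains mTORC1, 13.7, 12.1 and 13.3 TPM with DMSO and 104, 101 and 102 TPM with thapsigargin. The groups were apart for both, with changes of 2.85 ± 0.12 (adjusted p = 1.08e-16) and 2.88 ± 0.088 (adjusted p = 6.06e-20).

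Secreted products of this arm rose as well. Fgf21, a metabolic hormone whose promoter window is shown above, was listed at 0 in all 3 DMSO libraries and at 4.3, 3.58 and 5.15 TPM with thapsigargin. Gdf15, another stress hormone, rose from 0.18 to 4.91 TPM (2.32 ± 0.12, adjusted p = 8.76e-15) and the glycoprotein Stc2 from 2.64 to 16.3 TPM (2.26 ± 0.13, adjusted p = 1.92e-13). Among transcription factors Cebpb changed by 1.75 ± 0.13 (adjusted p = 2.03e-11), Cebpg by 1.57 ± 0.11 (adjusted p = 3.99e-12), Atf5 by 0.82 ± 0.066 (adjusted p = 9.35e-11) and Nupr1, a chromatin-associated stress protein, by 2.26 ± 0.091 (adjusted p = 2.44e-17). Ddit4, which restrains mTORC1, rose from 21 to 58.2 TPM (1.43 ± 0.075, adjusted p = 1.17e-14), and Eif4ebp1, which blocks cap-dependent translation, from 170.4 to 350.0 TPM (1.03 ± 0.084, adjusted p = 1.02e-10).

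**Figure D2:**
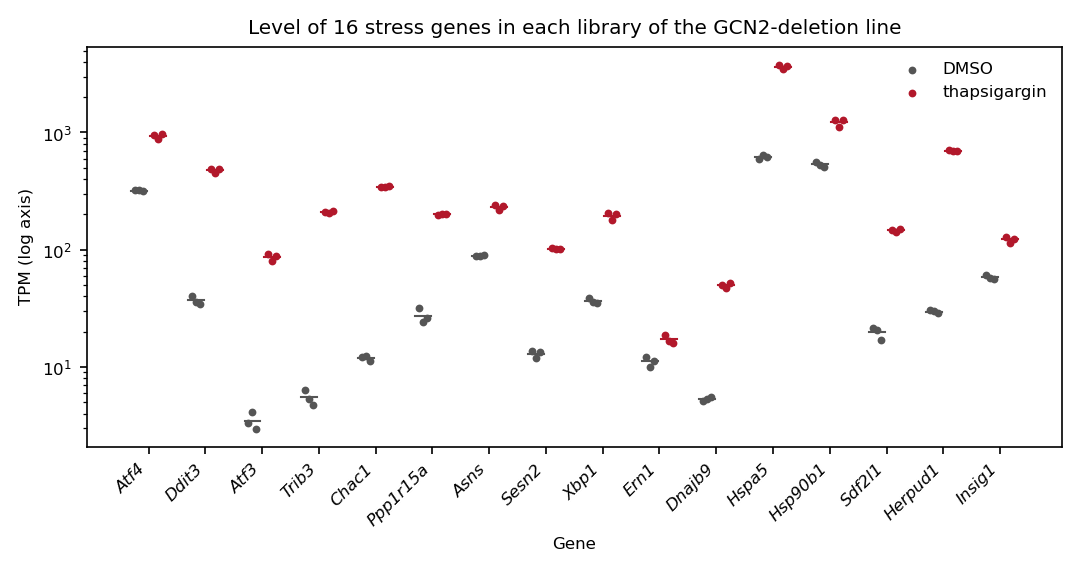
Each dot is the TPM of 1 library of the GCN2-deletion line (log axis) for 16 stress genes, grey for DMSO and red for thapsigargin, 3 libraries each; lines are means. The thapsigargin libraries lie above the DMSO libraries for each gene, with the widest gaps for Trib3, Chac1, Atf3 and Herpud1.

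Genes of amino acid supply rose together. Of amino acid synthesis and one-carbon genes 14 of 14 members rose and 0 fell (median 1.30). Asns, asparagine synthetase, stood at 88.5, 87.9 and 90.8 TPM with DMSO and 242, 218 and 237 TPM with thapsigargin, with no overlap (1.37 ± 0.054, adjusted p = 1.91e-17). Gpt2, an alanine transaminase, went from 13.9 to 85.9 TPM (2.56 ± 0.14, adjusted p = 3.52e-14), and Aldh1l2, an enzyme of mitochondrial folate, from 15.5 to 86.4 TPM (2.40 ± 0.15, adjusted p = 8.48e-13). Cth, which makes cysteine, went from 4.05 to 25 TPM (2.36 ± 0.083, adjusted p = 1.2e-18). The serine pathway rose in each step listed, with changes of 0.45 ± 0.086 (adjusted p = 0.000118) for Phgdh, 0.59 ± 0.052 (adjusted p = 5.45e-10) for Psat1 and 1.52 ± 0.15 (adjusted p = 2.43e-09) for Psph, and folate enzymes followed, with 1.4 ± 0.062 (adjusted p = 2.05e-16) for Mthfd2 and 0.86 ± 0.060 (adjusted p = 4.04e-12) for Shmt2.

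Of cytosolic tRNA synthetases, which charge tRNAs with amino acids, 17 of 20 members rose and 0 fell (median 0.78), and after median-of-ratios rescaling 14 rose and 2 fell. Kars, Qars and Vars did not pass. Aars, the alanine enzyme whose promoter window is shown above, stood at 124, 126 and 127 TPM with DMSO and 279.8, 259 and 272 TPM with thapsigargin, with the groups apart (1.10 ± 0.061, adjusted p = 3.97e-14). Cars, Tars and Wars, for cysteine, threonine and tryptophan, changed by 1.08 ± 0.079 (adjusted p = 1.19e-11), 1.08 ± 0.077 (adjusted p = 7.67e-12) and 0.99 ± 0.080 (adjusted p = 9.18e-11). Of amino acid transporters 13 of 15 members rose and 0 fell (median 1.14), all but Slc7a6 and Slc36a1. Slc7a11, the cystine carrier, stood at 1.03, 1.16 and 1.32 TPM with DMSO and 17.2, 17.5 and 16.3 TPM with thapsigargin, a change of 3.05 ± 0.17 (adjusted p = 5.91e-14). Slc6a9, a glycine carrier, rose from 11 to 63.8 TPM (2.44 ± 0.17, adjusted p = 2.58e-12) and Slc7a1, a carrier of cationic amino acids, from 40.9 to 172 TPM (2.04 ± 0.13, adjusted p = 1.07e-12). Slc3a2 and Slc7a5, the subunits of a leucine exchanger, changed by 1.84 ± 0.060 (adjusted p = 2.45e-19) and 1.48 ± 0.098 (adjusted p = 1.48e-12).

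Among eIF2, eIF2B, the kinases and the phosphatase subunits 8 of 16 members rose (50%, against 25.4% of all genes) and 0 fell (against 11.2%). The median was 0.15, and 5 members rose without thapsigargin replicate 1. After median-of-ratios rescaling 6 rose and 1 fell (median 0.0064). Beside Ppp1r15a and Eif2ak3, Ppp1r15b, the constitutive counterpart of Ppp1r15a, changed by 0.43 ± 0.085 (adjusted p = 0.000193) and Eif2s2, the beta subunit of eIF2, by 0.43 ± 0.069 (adjusted p = 1.5e-05).

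Among genes of calcium handling, which the drug acts on, 9 of 29 members rose (31.0%, against 25.4% of all genes tested) and 5 fell (17.2%, against 11.2%). The median was 0.10, near the 0.078 of all genes, and after median-of-ratios rescaling 7 rose and 9 fell. Atp2a2, the SERCA2 pump that thapsigargin blocks, stood at 219, 215 and 210.0 TPM with DMSO and 357, 315 and 334 TPM with thapsigargin, and no DMSO library reached the thapsigargin ones (0.64 ± 0.091, adjusted p = 2.39e-06). Rcan1, an inhibitor of the calcium-activated phosphatase calcineurin, rose from 16.2 to 98.2 TPM (2.52 ± 0.089, adjusted p = 1.36e-18), and Saraf, which limits store-operated entry, from 47.4 to 88 TPM (0.88 ± 0.052, adjusted p = 1.92e-13). The calmodulin gene Calm3 fell from 247 to 178 TPM (-0.47 ± 0.062, adjusted p = 7.33e-07), and Tmbim6, an ER calcium leak protein, from 275 to 230.4 TPM (-0.25 ± 0.042, adjusted p = 2.04e-05). The store sensor gene Stim1 did not pass (0.085 ± 0.093, adjusted p = 0.525).

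Of sterol genes 14 of 24 members rose (58.3%, against 25.4% of all genes) and 2 fell (8.33%, against 11.2%). The median was 0.24, and after median-of-ratios rescaling 10 rose and 6 fell. Dhcr7 was among those that fell, and the number fallen was 1 without DMSO replicate 1 or 3 or any 1 of the thapsigargin libraries. Insig1, which holds the sterol factor SREBP in the ER, stood at 61.2, 57.5 and 56.8 TPM with DMSO and 128, 115 and 125 TPM with thapsigargin (1.05 ± 0.069, adjusted p = 1.43e-12). Stard4, a cholesterol carrier, rose from 36 to 72 TPM (0.98 ± 0.12, adjusted p = 2.81e-07), and the enzyme genes Msmo1 and Sqle changed by 0.63 ± 0.061 (adjusted p = 3.01e-09) and 0.42 ± 0.059 (adjusted p = 1.53e-06).

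BCL2 family and death genes were called about as often as all genes tested: 6 of 25 members rose (24%, against 25.4% of all genes) and 3 fell (12%, against 11.2%), with a median of 0.089. After median-of-ratios rescaling 6 rose and 7 fell. Pmaip1, the NOXA gene, stood at 9.22, 8.78 and 8.54 TPM with DMSO and 27, 23.7 and 25.4 TPM with thapsigargin, with no overlap (1.42 ± 0.099, adjusted p = 4.83e-12). Bbc3, the PUMA gene, rose from 5.56 to 9.57 TPM (0.69 ± 0.15, adjusted p = 0.00064) and Birc2, an inhibitor of apoptosis, from 13.8 to 21.1 TPM (0.59 ± 0.12, adjusted p = 0.000344). Bok, a BCL2 relative of the ER membrane, fell from 60.8 to 33.2 TPM (-0.86 ± 0.083, adjusted p = 2.65e-09). Bcl2l11, the BIM gene, did not pass (-0.012 ± 0.12, adjusted p = 0.967), nor did Tnfrsf10b, the death receptor DR5, which was at 42.1 and 41.7 TPM (-0.011 ± 0.071, adjusted p = 0.941). The number fallen was 5 without DMSO replicate 1 and 1 without thapsigargin replicate 2, DMSO replicate 2 or DMSO replicate 3.

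Of immediate early genes 14 of 25 members rose (56%, against 25.4% of all genes) and 5 fell (20%, against 11.2%), with a median of 0.42. Klf4, a zinc finger factor, stood at 9.3, 7.9 and 8.48 TPM with DMSO and 90.8, 82.1 and 92.9 TPM with thapsigargin, a change of 3.23 ± 0.11 (adjusted p = 5.56e-19). Myc rose from 155 to 467 TPM (1.58 ± 0.069, adjusted p = 1.28e-16) and Klf10, a TGF-beta response factor, from 52.3 to 161 TPM (1.6 ± 0.11, adjusted p = 2.34e-12). Dusp6, an ERK phosphatase, and Egr3, an immediate early factor, changed by -0.80 ± 0.11 (adjusted p = 7.47e-07) and -0.96 ± 0.15 (adjusted p = 1.5e-05). Of NF-kappaB and cytokine genes 13 of 21 members rose (61.9%) and 4 fell (19.05%), with a median of 0.45. The chemokines Ccl7 and Ccl2 stood at 10.6, 12 and 11 TPM with DMSO and 58.1, 43.7 and 59.9 TPM with thapsigargin and at 25.7, 23.7 and 23.7 TPM with DMSO and 105, 80.1 and 109.8 TPM with thapsigargin, respectively. Their groups were apart (2.16 ± 0.12, adjusted p = 2.26e-14 and 1.96 ± 0.096, adjusted p = 2.31e-15). Ptgs2, the cyclooxygenase of inflammation, rose from 139 to 404 TPM (1.53 ± 0.11, adjusted p = 6.63e-12) and Relb, an NF-kappaB subunit, from 17.7 to 45.8 TPM (1.32 ± 0.087, adjusted p = 1.58e-12). Cxcl12, a stromal chemokine, and Csf1, a macrophage growth factor, fell from 493 to 254 TPM (-0.96 ± 0.059, adjusted p = 4.07e-13) and from 374 to 245 TPM (-0.61 ± 0.076, adjusted p = 2.83e-07). Without thapsigargin replicate 2, 2 members fell in place of 4.

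Of G2/M genes 0 of 24 members rose (against 25.4% of all genes) and 16 fell (66.7%, against 11.2%). The median was -0.27, and after median-of-ratios rescaling 0 rose and 23 fell. Plk1, a mitotic kinase, stood at 102, 101 and 100.1 TPM with DMSO and 63.9, 64.5 and 64.7 TPM with thapsigargin, with all thapsigargin libraries lower (-0.64 ± 0.049, adjusted p = 3.49e-11). Aurka and Cdk1, further kinases of mitosis, changed by -0.59 ± 0.049 (adjusted p = 1.09e-10) and -0.53 ± 0.052 (adjusted p = 3.57e-09). Of G1/S and replication genes 13 of 32 members rose (40.6%, against 25.4% of all genes) and 4 fell (12.5%, against 11.2%). The median was 0.11, near the 0.078 of all genes, and after median-of-ratios rescaling 9 rose and 6 fell (median -0.029). Cdt1 and Cdc6, which license replication origins, rose from 81.7 to 189 TPM (1.2 ± 0.082, adjusted p = 3.27e-12) and from 41.1 to 84.7 TPM (1.03 ± 0.057, adjusted p = 3.52e-14). Cdkn1a, the p21 inhibitor, rose from 54.2 to 85 TPM (0.64 ± 0.070, adjusted p = 2.7e-08), and Ccnd1, cyclin D1, fell from 53.9 to 31.5 TPM (-0.76 ± 0.060, adjusted p = 6.67e-11). Shares of cells in each phase were not measured, and fewer cells of a kind and less RNA per cell cannot be told apart in bulk RNA.

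The lists of other stress programmes had mixed counts, to be read against the 25.4% of all genes that rose and the 11.2% that fell. Of cytosolic heat shock genes 2 of 20 members rose and 8 fell (median -0.13). Hspa4l and Bag3 rose, and Hspa8, the constitutive HSP70, fell from 2071 to 1414 TPM (-0.55 ± 0.078, adjusted p = 2.22e-06). Here and in the hypoxia list below, the number fallen was 4 without thapsigargin replicate 2 or DMSO replicate 2 and 5 without DMSO replicate 3. Of NRF2 antioxidant genes 5 of 20 members rose and 9 fell (median -0.14). Hmox1, heme oxygenase, rose from 102 to 220.5 TPM (1.10 ± 0.062, adjusted p = 5.45e-14), and Nqo1, a quinone reductase, fell from 32.8 to 22.9 TPM (-0.50 ± 0.055, adjusted p = 3.03e-08). The number risen was 3 without thapsigargin replicate 1, thapsigargin replicate 3 or DMSO replicate 1. Of hypoxia and glycolysis genes 4 of 22 members rose and 8 fell (median -0.097), with Vegfa at 86.1, 52.3 and 57.6 TPM with DMSO and 218, 198 and 193 TPM with thapsigargin (1.65 ± 0.16, adjusted p = 2.34e-09) and Ndrg1 changed by 2.17 ± 0.093 (adjusted p = 1.08e-16). Of p53 targets 8 of 20 members rose and 4 fell (median 0.018), and several of those that rose, such as Sesn2 and Pmaip1, are in the ATF4 or death lists too; Ccng1, Phlda3, Gtse1 and Ei24 fell. Of lysosome and autophagy genes 10 of 26 members rose and 4 fell (median 0.11), and after median-of-ratios rescaling 8 rose and 11 fell; Sqstm1, the p62 receptor, rose from 219 to 441 TPM (1.01 ± 0.065, adjusted p = 9.24e-13). The number fallen was 0 to 2 without any of the 3 thapsigargin libraries or DMSO replicates 2 or 3. Of interferon-stimulated genes 3 of 16 members rose and 0 fell (median 0.064), namely Cxcl10, Isg15 and Ifih1. With 18.8% risen the list was below all genes, and 2 rose and 3 fell both after median-of-ratios rescaling (median -0.033) and with quantile normalization (median -0.031); 5 rose without DMSO replicate 2.

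Of ribosome biogenesis genes 18 of 30 members rose (60%, against 25.4% of all genes) and 1, Nop16, fell (median 0.25). After median-of-ratios rescaling 12 rose and 1 fell. Rrp12 and Wdr43, processing factors of ribosomal RNA, changed by 0.71 ± 0.069 (adjusted p = 2.61e-09) and 0.64 ± 0.092 (adjusted p = 2.8e-06). Of collagens and matrix genes, main products of fibroblasts, 1 of 28 members rose (3.57%, against 25.4% of all genes) and 13 fell (46.4%, against 11.2%). The median was -0.20, and after median-of-ratios rescaling 0 rose and 18 fell. Tnc, tenascin C, was the member that rose, and the number risen was 2 without thapsigargin replicate 2 or DMSO replicate 2. Col1a1, the main fibrillar collagen, stood at 1589, 1258 and 1170.5 TPM with DMSO and 896, 897 and 995 TPM with thapsigargin, with all thapsigargin libraries lower (-0.52 ± 0.11, adjusted p = 0.000728). Col1a2, its partner chain, and Fbn1, fibrillin, changed by -0.67 ± 0.10 (adjusted p = 4.86e-06) and -0.72 ± 0.13 (adjusted p = 0.000103). Mitochondrially encoded genes took 6.39% to 7.29% of TPM with DMSO and 4.27% to 5.78% with thapsigargin. Of 13 members 0 rose and 5 fell (38.5%, against 11.2% of all genes), with a median of -0.38. The number fallen was 0 with quantile normalization and 3 without thapsigargin replicate 1, thapsigargin replicate 2 or DMSO replicate 1.

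**Figure D3:**
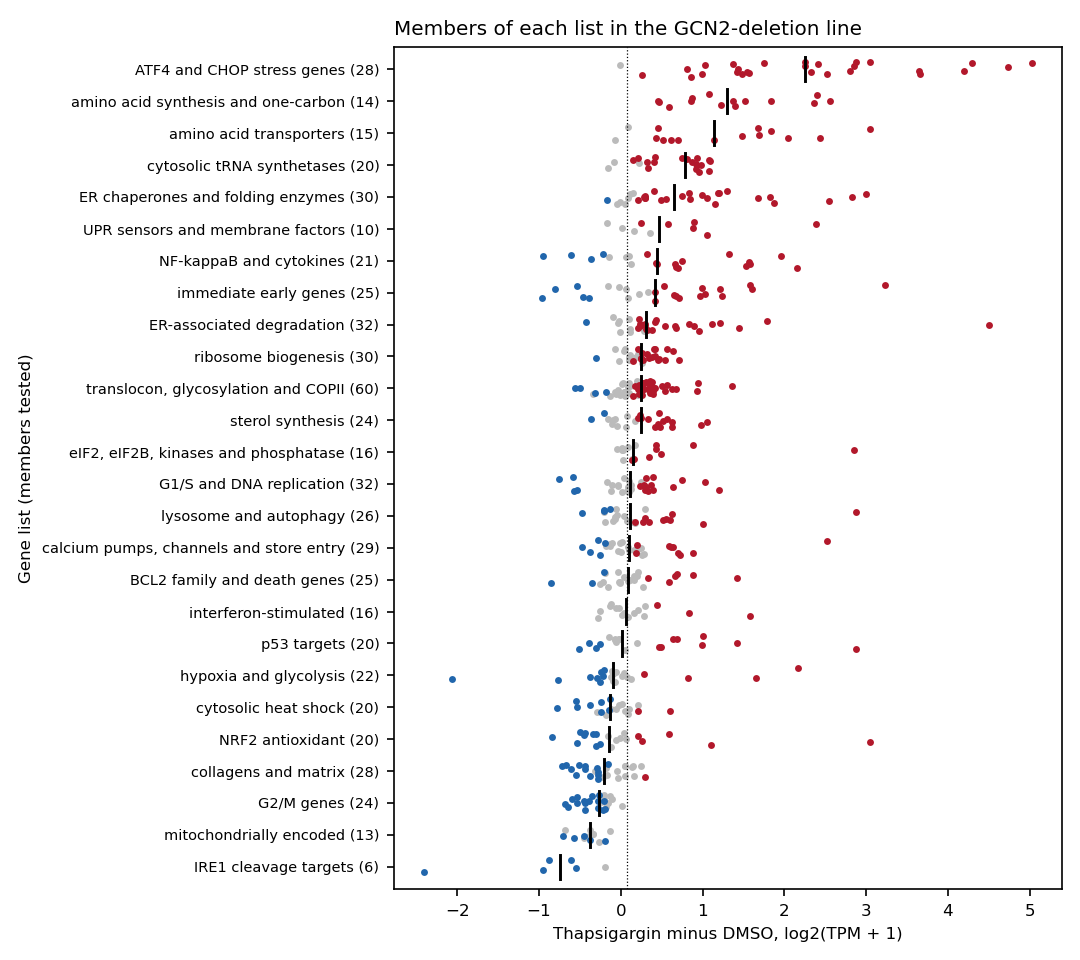
Thapsigargin minus DMSO differences, log2(TPM + 1), of the tested members of 26 gene lists in the GCN2-deletion line, red where a member rose, blue where it fell and grey where it did not pass; black bars are list medians and the dotted line is the median of all genes tested. The ATF4 and CHOP stress genes have the highest median, 2.26, and the IRE1 cleavage targets the lowest, -0.74.

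The same drug in the other lines shows where the response of the GCN2-deletion line differed. In WT, thapsigargin raised 1835 of 16083 genes (11.4%) and lowered 2383 (14.8%), and in the PERK-deletion line it raised 400 (2.49%) and lowered 443 (2.75%). At least 2-fold, 220 rose in WT and 54 in the PERK-deletion line, against 455 in the GCN2-deletion line. Of the latter, 152 rose 2-fold in WT as well, 33.4% of the 455 and 69.1% of the 220. With the PERK-deletion line 30 were shared, 6.59% and 55.6%, and 23 rose 2-fold in all 3 lines. Of all 16083 genes tested, 2.83% rose 2-fold in the GCN2-deletion line.

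Against WT, the difference of responses was higher in the GCN2-deletion line for 1974 genes (12.3%) and lower for 302 (1.88%). After median-of-ratios rescaling it was higher for 1225 and lower for 1045, and it was higher for 942 without WT thapsigargin replicate 3 and for 2696 without WT thapsigargin replicate 1. Trib3 and Chac1 changed by 5.02 here and 3.83 in WT and 4.73 here and 3.44 in WT, differences of 1.2 ± 0.17 (adjusted p = 3.34e-05) and 1.29 ± 0.16 (adjusted p = 4.19e-06). In the ATF4 and CHOP list 16 of 28 responses were higher and 4 lower, and among the 30 chaperones 1 was higher and 2 lower, and after median-of-ratios rescaling 12 and 4 of the first list and 1 and 14 of the second. Asns and Sesn2 were also higher, by 0.60 ± 0.077 (adjusted p = 5.8e-06) and 0.69 ± 0.12 (adjusted p = 0.00053), whereas Ppp1r15a was lower, at -0.69 ± 0.17 (adjusted p = 0.00946).

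Another 5 differences in the panel of 16 were less firm. Those of Atf4 (0.21 ± 0.068, adjusted p = 0.0391), Ddit3 (-0.30 ± 0.089, adjusted p = 0.0287), Atf3 (0.67 ± 0.20, adjusted p = 0.031), Hspa5 (-0.29 ± 0.089, adjusted p = 0.0305) and Insig1 (0.35 ± 0.098, adjusted p = 0.0188) did not hold under several alternatives. With median-of-ratios rescaling Atf4 (0.014), Atf3 (0.47) and Insig1 (0.16) did not pass, and with quantile normalization Ddit3 (-0.12) did not pass and Hspa5 turned to 0.27. The call of Atf4 was lost without any single library of the 4 groups other than thapsigargin replicate 2 of the GCN2-deletion line. That of Ddit3 was lost without thapsigargin replicate 2 or DMSO replicate 1 of that line, or WT thapsigargin 2 or 3 or WT DMSO 1 or 3. For Atf3 the same held for thapsigargin replicates 1 or 3 and DMSO replicate 3, and for WT thapsigargin 2 or 3 and WT DMSO 1 or 3. For Hspa5 it held for thapsigargin replicate 2, DMSO replicates 2 or 3, WT thapsigargin 1 or 3 and WT DMSO 2, and for Insig1 for thapsigargin replicate 1 and WT DMSO 1. The other 6 of the 16, Xbp1, Ern1, Dnajb9, Hsp90b1, Sdf2l1 and Herpud1, did not pass against WT. Their 95% intervals ran from -0.44 to 0.018 for Xbp1 and from -0.091 to 0.45 for Herpud1.

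The responses most above WT were of genes outside the panel of stress genes. Of the genes named below, Vldlr and Fgf21 are members of the ATF4 and CHOP list. Vldlr, a lipoprotein receptor, rose from 2.92 to 26.2 TPM (2.81 ± 0.16, adjusted p = 6.73e-14), whereas its change in WT was 0.32 ± 0.16 (adjusted p = 0.161), a difference of 2.49 ± 0.23 (adjusted p = 2.59e-08). Txnip, a thioredoxin inhibitor, had a difference of 1.97 ± 0.16 (adjusted p = 4.04e-09), Plag1, a zinc finger factor, one of 1.83 ± 0.33 (adjusted p = 0.000435) and Gch1, the first enzyme of tetrahydrobiopterin synthesis, one of 1.81 ± 0.15 (adjusted p = 1.15e-08). For Pdgfb, a growth factor, and Zbed6, a zinc finger factor, the differences were 1.87 ± 0.16 (adjusted p = 8.04e-09) and 1.91 ± 0.56 (adjusted p = 0.0245), while their own changes in the GCN2-deletion line were 0.50 ± 0.11 (adjusted p = 0.000608) and 0.56 ± 0.39 (adjusted p = 0.296). Against untreated cells in place of DMSO, the change of Pdgfb turned to -0.015 and did not pass (adjusted p = 0.949). Zbed6 lost its call without DMSO replicate 1 or 2 of the GCN2-deletion line, or without certain single WT libraries (thapsigargin 2 or 3, DMSO 1 or 3). Responses most below WT were of U90926 (-1.80 ± 0.16, adjusted p = 2.1e-08), Adm (-1.56 ± 0.23, adjusted p = 3.93e-05), the carbonic anhydrase Car6 (-1.42 ± 0.17, adjusted p = 2.93e-06), H2-Bl, of the MHC family, whose members share sequence (-1.37 ± 0.23, adjusted p = 0.000212), Fgf21 (-1.29 ± 0.21, adjusted p = 0.000118) and the forkhead factor Foxs1 (-1.2 ± 0.15, adjusted p = 5.8e-06). Fgf21 was at 0.492 ± 0.336 TPM with DMSO and 18.1 ± 1.14 TPM with thapsigargin in WT, and with a pseudocount of 0.1 TPM its difference turned to 0.34. With that pseudocount the calls of Adm, Car6, H2-Bl and Foxs1 were lost as well.

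**Figure D4:**
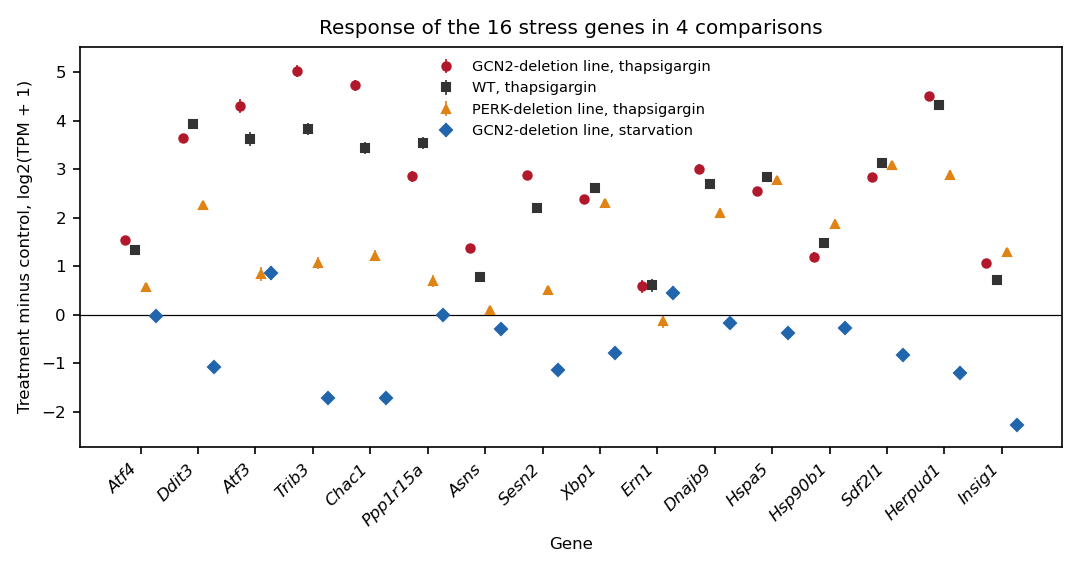
Treatment minus control for the 16 stress genes, log2(TPM + 1), mean difference with its SE from limma: thapsigargin against DMSO in the GCN2-deletion line (red circles), WT (black squares) and the PERK-deletion line (orange triangles), and starvation against untreated in the GCN2-deletion line (blue diamonds). Trib3 stands at 5.02, 3.83, 1.07 and -1.72 in these 4 comparisons.

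Against the PERK-deletion line, labelled PERK delete, 2884 responses were higher (17.9%) and 833 lower (5.18%), and after median-of-ratios rescaling 1879 and 1862. In the ATF4 and CHOP list 27 of 28 responses were higher and 0 lower, with 27 and 1 after that rescaling. Trib3 changed by 5.02 here and 1.07 in PERK delete cells, a difference of 3.96 ± 0.17 (adjusted p = 1.89e-15), and the differences were 3.52 ± 0.16 (adjusted p = 6.13e-15) for Chac1, 3.46 ± 0.20 (adjusted p = 9.65e-13) for Atf3, 3.62 ± 0.14 (adjusted p = 3.42e-16) for Gadd45a and 3.46 ± 0.14 (adjusted p = 9.45e-16) for Adm2. Ppp1r15a, Sesn2, Asns and Ddit3 differed by 2.15 ± 0.17 (adjusted p = 3.51e-10), 2.37 ± 0.12 (adjusted p = 9.18e-14), 1.28 ± 0.077 (adjusted p = 1.2e-12) and 1.38 ± 0.089 (adjusted p = 4.26e-12), and Atf4 mRNA by 0.98 ± 0.068 (adjusted p = 1.89e-11). The splicing factor gene Zrsr1 differed by 3.03 ± 0.97 (adjusted p = 0.0239), a call lost without thapsigargin replicate 2 or DMSO replicates 2 or 3 of the GCN2-deletion line, or thapsigargin 2 or DMSO 1 or 3 of the PERK-deletion line.

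The ER protein folding genes had another pattern. Of the 30 chaperones and folding enzymes, 2 responses were higher than in the PERK-deletion line and 15 lower, with 2 and 20 after median-of-ratios rescaling, while 23 members rose in the PERK-deletion line itself. Hsp90b1 rose by 1.19 here and 1.87 in PERK delete cells (-0.68 ± 0.13, adjusted p = 0.000232 for the difference). Hspa5 differed by -0.24 ± 0.089 (adjusted p = 0.048), which turned to 0.24 with quantile normalization. Its call was lost without thapsigargin or DMSO replicates 2 or 3 of the GCN2-deletion line, or any thapsigargin library or DMSO 1 or 3 of the PERK-deletion line. Dnajb9, Ern1 and Herpud1 had higher responses than in the PERK-deletion line, by 0.90 ± 0.14 (adjusted p = 2.81e-05), 0.72 ± 0.19 (adjusted p = 0.00629) and 1.62 ± 0.13 (adjusted p = 5.49e-10). Xbp1, Sdf2l1 and Insig1 did not pass, with 0.088 ± 0.11 (adjusted p = 0.637), -0.26 ± 0.11 (adjusted p = 0.0955) and -0.23 ± 0.098 (adjusted p = 0.0903).

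Responses most below those of the PERK-deletion line were of Adm (-1.83 ± 0.23, adjusted p = 7.54e-07), the calcium-binding proteins S100a11 (-1.66 ± 0.099, adjusted p = 1.1e-12) and S100a4 (-1.56 ± 0.18, adjusted p = 1.88e-07), Uqcrh (-1.55 ± 0.16, adjusted p = 3.54e-08), U90926 (-1.48 ± 0.16, adjusted p = 7.96e-08) and Foxs1 (-1.47 ± 0.15, adjusted p = 4.14e-08). Of the 121 genes that fell 2-fold, 71 had a lower response than in the PERK-deletion line and 26 a lower one than in WT. Over all genes tested these shares were 5.18% and 1.88%. The 121 were picked by their fall in the same libraries, so a higher share of lower responses among them is built in.

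**Figure D5:**
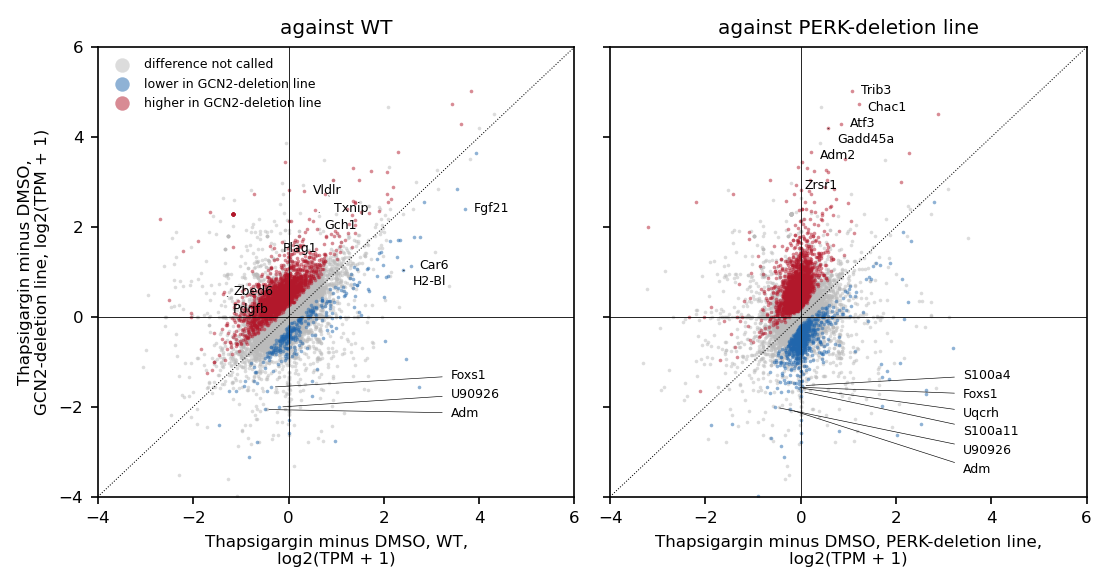
Thapsigargin minus DMSO, log2(TPM + 1), of each of the 16083 genes in the GCN2-deletion line (y axis) against WT (left) and against the PERK-deletion line (right); red and blue points have a higher or lower response in the GCN2-deletion line, and the dotted line marks equal responses. In the right panel Trib3, Chac1, Atf3, Gadd45a and Adm2 stand high on the y axis, at 3.67 to 5.02, and no higher than 1.21 on the x axis.

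In the same line, starvation against untreated raised 1878 genes (11.7%) and lowered 1952 (12.1%), and 125 rose 2-fold. The 2-fold rises shared with thapsigargin were 18, 3.96% of the 455 and 14.4% of the 125. Of all 16083 genes tested, 2.83% rose 2-fold with thapsigargin in this line, and 125 genes did so with starvation. The response to thapsigargin was higher than that to starvation for 2762 genes (17.2%) and lower for 1154 (7.18%), and after median-of-ratios rescaling for 2105 and 2086. In the list of ATF4 and CHOP targets, starvation gave 4 rises, 12 falls and 12 genes that did not pass, of 28 (median -0.22). Those that rose were Atf3 (0.86), Cebpg (0.55), Pmaip1 (1.29) and Dusp4 (1.06). Some of the genes highest with thapsigargin were among those that fell: Trib3 changed by 5.02 with thapsigargin and -1.72 with starvation, Chac1 by 4.73 with thapsigargin and -1.73 with starvation and Ddit3 by 3.65 with thapsigargin and -1.08 with starvation. The differences were 6.74 ± 0.17 (adjusted p = 1.36e-21), 6.46 ± 0.16 (adjusted p = 1.14e-21) and 4.73 ± 0.089 (adjusted p = 1.89e-24), followed by 5.71 ± 0.13 (adjusted p = 2.33e-22) for Herpud1, 4.76 ± 0.14 (adjusted p = 4.62e-20) for Gadd45a and 4.09 ± 0.14 (adjusted p = 2.14e-18) for Adm2. Of the chaperones, 0 rose and 12 fell with starvation.

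Among the genes with a lower response to thapsigargin than to starvation were Sema7a, a membrane-anchored semaphorin (-3.66 ± 0.17, adjusted p = 1.46e-15), Foxs1 (-2.93 ± 0.15, adjusted p = 1.39e-14) and Oaf (-2.84 ± 0.21, adjusted p = 2.23e-11). Such a difference of responses can come from a rise with starvation as well as from a fall with thapsigargin. Egr3 and Errfi1, an inhibitor of EGF receptors, had differences of -2.37 ± 0.22 (adjusted p = 2.25e-09) and -2.32 ± 0.11 (adjusted p = 1.03e-15). The starved cells were also moved to another medium, for which the labels name no control group.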

How the data were processed

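RNA of 36 MEF libraries in 12 groups of 3 was sequenced from TruSeq stranded libraries, per the labels' protocols. The submitters' processing notes name FastQC, kallisto and mm10, with no versions. The deposited table holds TPM per gene, as made by the authors, for 54735 symbols; 54106 matched GENCODE M21, which gave gene classes. TPM keep no read depth, so that no counting interval could be given, and genes that share sequence can share reads.

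Fitted were the 16083 genes that reached 1 TPM in 3 or more libraries, on log2(TPM + 1) with limma 3.58.1 in R 4.3.3, with 1 mean per group over all 36 libraries (24 residual degrees of freedom), a variance trend and robust moderation. All adjusted p-values are limma's, adjusted by Benjamini-Hochberg across the 16083 genes; a gene rose or fell when it was under 0.05. Differences between lines or stresses are contrasts of effects in this fit. Lists are described by counts and medians, with no set test.

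Named were the 4 eIF2alpha kinases, a panel of 16 stress genes and the 10 that rose and the 10 that fell most among called genes with a conventional symbol, a mean of at least 5 TPM in either group and no overlap of libraries. Added were the 6 largest in each direction per difference and list members whose role is described. Some genes that the rule names are not reported here. The members and lists were chosen with earlier results of these data known. Other pseudocounts, filters, scalings, controls, fits and left-out libraries were tried; the rescaling to protein-coding genes, that without Gm19220 and the omission of both libraries rich in microRNA symbols were chosen after seeing the data. Promoters are RefSeq's for GRCm38.p6, matched by symbol. Steps were tested on simulated data. Figures were drawn with matplotlib 3.10.9.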

Additional observations from a re-analysis of the deposited data

Results flagged for a closer look

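The thapsigargin response of a named gene differed between lines, by limma's test of the difference, in the cases below; values are log2 differences of responses, GCN2-deletion line minus the other line. Against WT, 13 named genes had a higher response, namely Vldlr (2.49), Txnip (1.97), Zbed6 (1.91), Pdgfb (1.87), Plag1 (1.83), Gch1 (1.81), Chac1 (1.29), Trib3 (1.2), Sesn2 (0.69), Atf3 (0.67), Asns (0.60), Insig1 (0.35), Atf4 (0.21). A lower response than in WT was found for 9, namely U90926 (-1.80), Adm (-1.56), Car6 (-1.42), H2-Bl (-1.37), Fgf21 (-1.29), Foxs1 (-1.2), Ppp1r15a (-0.69), Ddit3 (-0.30), Hspa5 (-0.29). Of these, Fgf21 turned to 0.34 with a pseudocount of 0.1 TPM, with which the calls of Adm, Car6, H2-Bl and Foxs1 were lost, and Hspa5 turned to 0.27 with quantile normalization. Calls of Atf4, Atf3, Ddit3, Hspa5, Insig1 and Zbed6 were lost without some single libraries.

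Against the PERK-deletion line, 14 named genes had a higher response, namely Trib3 (3.96), Gadd45a (3.62), Chac1 (3.52), Atf3 (3.46), Adm2 (3.46), Zrsr1 (3.03), Sesn2 (2.37), Ppp1r15a (2.15), Herpud1 (1.62), Ddit3 (1.38), Asns (1.28), Atf4 (0.98), Dnajb9 (0.90), Ern1 (0.72). A lower one was found for 8, namely Adm (-1.83), S100a11 (-1.66), S100a4 (-1.56), Uqcrh (-1.55), U90926 (-1.48), Foxs1 (-1.47), Hsp90b1 (-0.68), Hspa5 (-0.24). Hspa5 turned to 0.24 here with quantile normalization, Foxs1 lost its call with a pseudocount of 0.1 TPM, and Hspa5 and Zrsr1 lost theirs without some single libraries. The 6 with the largest difference in each direction were picked by it. Groups of 3 libraries were not screened for single libraries that stand apart.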

How the results depend on the processing

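TPM carry no read depth, so the precision of low genes could not be set apart from their spread, and all p-values rest on technical replicates. The number of genes raised by thapsigargin in the GCN2-deletion line stayed within 1.5 times of 4085 under the alternatives run, with 3360 to 4079 when a library was left out. The number lowered, 1805, was 3215 with median-of-ratios rescaling, 3122 with quantile normalization and 1485 to 1652 when a library was left out; without Gm19220 the counts were 4728 and 1519.

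The number of responses above WT, 1974, was 1225 with median-of-ratios rescaling, 994 with quantile normalization, 1314 without a filter, 1236 with the 4 compared groups fitted alone, 4721 with untreated cells as the control and 3160 with protein-coding genes rescaled to 1 total. Below WT, 302 became 1045, 770, 201 (compared groups alone) and 988 (untreated control). Without 1 library these ran from 942 to 2696 and from 181 to 369. Against the PERK-deletion line, 2884 and 833 became 1879 and 1862 with median-of-ratios rescaling and 1741 and 1706 with quantile normalization, and ran from 2364 to 3078 and from 657 to 900 without 1 library. Against starvation, 1154 lower became 2086 and 1849 with these scalings. With the thapsigargin libraries set directly against the starved ones, and no control group, 4434 genes were higher and 1748 lower. Without 1 library 2345 to 2968 responses were higher and 971 to 1147 lower. Beyond what each alternative itself changes, the cause was not tested.

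Of 187 named genes that changed with thapsigargin in the GCN2-deletion line, 22 were no longer called under at least 1 of 18 alternatives. Turned in sign were the difference of Hspa5 with quantile normalization (0.27 against WT and 0.24 against the PERK-deletion line), that of Fgf21 against WT with a pseudocount of 0.1 TPM (0.34) and the uncalled change of Pdgfb against untreated cells (-0.015).

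The labels number the replicates, but deviations of same-numbered DMSO and thapsigargin libraries of the GCN2-deletion line correlated at -0.003, 0.026 and -0.069. In WT the same-numbered ones correlated at 0.102, 0.155 and -0.048, and those of unlike number at -0.193 to 0.119. Such values cannot show whether same-numbered libraries were handled together. With the replicate block 4114 genes rose and 1842 fell, and the differences were 1971 and 307 against WT, 2911 and 854 against the PERK-deletion line and 2792 and 1158 against starvation.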

Other observations

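Genes of ribosomal proteins and of the respiratory chain and ATP synthase, groups picked after seeing the data, moved against the stress genes. Of 81 cytosolic ribosomal protein genes, 1 rose and 33 fell with thapsigargin in the GCN2-deletion line. Over all genes tested, 25.4% rose and 11.2% fell. Their median log2 change was -0.20, against 0.042 in WT and -0.0014 in the PERK-deletion line. Tested directly, the response was lower than in WT for 6 and higher for 0 (all genes: 1.88% and 12.3%). Against the PERK-deletion line it was lower for 12 and higher for 2 (all genes: 5.18% and 17.9%). Nuclear genes of the respiratory chain and ATP synthase were picked by symbols starting with Nduf, Uqcr, Cox or Atp5, which can also match assembly factors. Of these 84 genes, 5 rose and 42 fell, with a median of -0.24 against 0.0036 in WT. The response was lower than in WT for 14 of them and higher for 0. Against the PERK-deletion line it was lower for 16 and higher for 4. Of 52 symbols of 5S ribosomal RNA, 26 rose and 1 fell (median 2.10, and -1.17 in WT); these are near-identical copies whose values are uncertain.

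The changes of protein-coding genes went weakly with transcript length, with a Spearman correlation of 0.216 for thapsigargin in the GCN2-deletion line. It was -0.125 in WT, 0.008 in the PERK-deletion line and 0.175 for starvation in the GCN2-deletion line. Over 10 length classes of 12170 genes, the median log2 change with thapsigargin in the GCN2-deletion line ran from -0.056 in the shortest class to 0.21 in the longest. In WT the medians of these classes were -0.051 and -0.16, in the PERK-deletion line -0.043 and -0.034, and with starvation in the GCN2-deletion line -0.064 and 0.11. Median lengths were 697 bases for the ribosomal protein genes and 664 for the respiratory chain and ATP synthase group. The part of length in their values was not tested.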
